A study of Mus musculus with 36 samples.

Results

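C2C12 is a mouse myoblast line whose cells fuse into multinucleate, contractile myotubes when serum is lowered. *Tug1* (taurine upregulated gene 1) is a conserved long non-coding RNA, a transcript that works as RNA, found in the nucleus and the cytoplasm and known to bind polycomb repressive complex 2, an enzyme complex that marks chromatin for silencing. An antisense locked nucleic acid (LNA) pairs with its target transcript and directs RNase H to cleave it. Here the average effect of *Tug1* knockdown (*Tug1* KD) was taken over every library of the series, 18 Tug1-KD libraries against 18 Control libraries, 36 of 36 in all. The comparison asked which genes moved with the LNA whatever the state of the myotubes, and which small shifts a comparison of 6 against 6 libraries did not call.

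C2C12 myotubes received either a *Tug1* LNA or a negative control LNA on day 3 of differentiation and were stimulated or left at rest on day 4. Within each arm 6 libraries came from unstimulated myotubes (Rest), 6 from myotubes harvested at the end of 3 h of electrical pulse stimulation (EPS 0h) and 6 from myotubes harvested 3 h later (EPS 3h). EPS makes myotubes contract and serves as an exercise-like stimulus in culture. Each arm of these libraries received a single LNA sequence, so here an effect of the loss of *Tug1* and an effect particular to either sequence cannot be told apart. Another *Tug1* LNA, which the study applied in a different cell line, is not analysed here. Libraries were single wells, in triplicate from 2 independent experiments of the same cell line. The replicate number was a covariate of the fit, so p-values measure the spread between wells that remains after it. The units of the fit are wells and not experiments. Total counts per library ran from 17005079 to 24181167 (median 20155805 in control and 19199747 in *Tug1* KD myotubes). The libraries of replicates 1 to 3 and of replicates 4 to 6 stood apart in both arms, a division read from the libraries themselves, and values for each set are given where they matter.

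Average log2FC values (*Tug1* KD minus control) come from a single LNA term in an edgeR quasi-likelihood fit to all 36 libraries, with the state and the replicate number as covariates, over the 13995 genes that reached 1 RPM (counts scaled to the size of the library) in no fewer than 12 of the libraries. A gene was called at a false discovery rate (FDR, Benjamini-Hochberg over all genes tested) under 0.05. RPM values are scaled by edgeR's TMM factors, and lengths were not taken into account, so they compare libraries and not genes.

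*Tug1* itself (chr11:3589785-3599673 in GRCm39, minus strand, listed as protein coding in the annotation used here) was the targeted transcript. At Rest its level lay from 38.6 to 58.3 RPM (median 47.8) in control and from 24.0 to 33.3 RPM (median 25.4) in *Tug1* KD myotubes. At EPS 0h the ranges were 55.0 to 80.6 RPM (median 67.7) and 29.5 to 61.9 RPM (median 42.2), and at EPS 3h they were 54.6 to 107 RPM (median 77.0) and 40.0 to 84.6 RPM (median 51.5). The arms were separate at Rest and overlapped at EPS 0h and EPS 3h, and 17 of 18 Tug1-KD libraries lay below the control mean of their state. The average log2FC was -0.64 (SE 0.072, FDR = 3.76e-09, edgeR), which leaves 0.640 times the control level. It was -0.82 at Rest, -0.59 at EPS 0h and -0.52 at EPS 3h, and -0.64 in each replicate set. The nearest tested genes on either side were *Smtn* and *Osbp2*. *Smtn*, which encodes the actin-binding protein smoothelin, rose by 0.39 (SE 0.044, FDR = 5.16e-09) in 18 of 18 libraries, and *Osbp2*, an oxysterol-binding protein gene, had a log2FC of 0.16 (FDR = 0.0892). *Morc2a*, which overlaps *Tug1* on the opposite strand, rose by 0.16 (FDR = 0.0064).

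Over the 3 states together, 2969 genes were higher (21.2% of those tested) and 3220 lower (23%) in *Tug1* KD myotubes. A fit to the same libraries with an LNA term per state called 2410 genes (17.2%) at Rest, in either direction. It called 3406 (24.3%) at EPS 0h and 2878 (20.6%) at EPS 3h. The median SE of a log2FC was 0.0663 for the average and from 0.115 to 0.116 for the 3 states. Most of the called effects were small, with a median absolute log2FC of 0.28, and the median of all genes tested was -0.02. Of the 6189 called genes, 1475 were called in all 3 states, 1155 in 2 states and 1712 in 1 state.

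Genes changed alike were defined by size. They were called on average, had the same sign in all 3 states, kept the smallest state log2FC at no less than 0.5 times the average, and were not past the test of a difference between the states. By this rule 2312 genes were higher (16.5% of those tested) and 2506 lower (17.9%), together 77.8% of the called genes. Their median log2FC was 0.34 and -0.27, and 73 of the higher and 62 of the lower genes exceeded 1 in absolute log2FC. A further 694 and 1081 stayed under 0.25. *Dph5*, with 0.29, 0.17 and 0.09 at Rest, EPS 0h and EPS 3h, was the gene just inside the size limit, and *Dtx2*, with -0.10, -0.28 and -0.24, the gene just outside it. Of the 1371 called genes that were not alike, 170 had a sign that differed in a state and 1200 others fell under the size limit. *Sesn1* passed the test between the states and was counted apart, although its value at Rest also lay under the size limit. In 202 of the alike genes that were higher (1.44% of those tested) and 113 that were lower (0.807%), no Tug1-KD library overlapped a control library in any of the 3 states.

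The test of the LNA effect between states (2 degrees of freedom, edgeR) called 2 genes (0.0143%), and 587 genes had an unadjusted p under 0.05. A gene that misses this test is not shown to be alike, so directions were also read in libraries that the calls did not use. Of the genes called with the 12 libraries of Rest alone, 98.9% of the higher and 97.1% of the lower genes had the same sign in the libraries of EPS 0h alone, and 97.1% and 94.7% in those of EPS 3h alone. Read at Rest, calls of EPS 0h alone kept their sign for 89.8% of the higher and 92.6% of the lower genes. At EPS 3h they did so for 96.0% and 95.2%. Calls of EPS 3h alone kept it for 91.8% and 97.2% at Rest and for 98.1% and 99.4% at EPS 0h. Fitted alone, Rest called 2451, EPS 0h 6420 and EPS 3h 2911 of the 13995 genes tested. Of the EPS 0h calls 37.0% and 28.1% were also called at Rest, and of the Rest calls 90.1% and 79.7% at EPS 0h. Such shares depend on the unequal numbers of calls in the states. Calls from replicates 1 to 3 had the same sign in replicates 4 to 6 for 98.9% of the higher and 97.3% of the lower genes, and calls from replicates 4 to 6 read in replicates 1 to 3 gave 92.4% and 95.7%. From 45.7% to 54.3% of all genes tested had the sign in question in the set in which it was read.

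The largest rises among the genes changed alike, with at least 5 RPM in the higher arm, included membrane and cytoskeletal proteins of muscle and of synapses. *Dmd* (chrX:81992474-84249747, plus strand) encodes dystrophin, which links the actin cytoskeleton to the membrane complex of muscle fibres. Its level ran from 0.644 to 4.26 RPM (median 1.76) in control and from 4.42 to 28.0 RPM (median 8.15) in *Tug1* KD myotubes, so that the arms did not overlap in any of the 36 libraries. The average log2FC was 2.54 (SE 0.095, FDR = 1.45e-21), with 2.48, 2.59 and 2.52 at Rest, EPS 0h and EPS 3h. *Pkhd1* (chr1:20128003-20688288, minus strand) encodes fibrocystin, a membrane protein of primary cilia. It lay from 3.26 to 7.46 RPM (median 4.97) in control and from 21.7 to 40.3 RPM (median 27.2) in *Tug1* KD myotubes, again without overlap over all 36 libraries. Its log2FC was 2.51 (SE 0.080, FDR = 2.04e-23), a level 5.71 times that of the control. *Nrxn3* (chr12:88689646-90301709, plus strand), a neurexin of presynaptic membranes, went from a median of 4.29 RPM (2.23 to 8.55) to 16.5 RPM (11.5 to 34.6), with a log2FC of 2.12 (SE 0.092).

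*Tbc1d8* (chr1:39410573-39517881, minus strand), a member of the TBC-domain family whose proteins act on Rab GTPases, rose by 1.96 (SE 0.064, FDR = 3.59e-23). Control libraries held from 5.96 to 19.99 RPM (median 11.8) and Tug1-KD libraries from 31.1 to 58.0 RPM (median 45.2). The arms did not overlap, although replicates 1 to 3 lay above replicates 4 to 6 within each arm. *Col25a1*, a transmembrane collagen needed for motor innervation of muscle, rose by 1.96 (SE 0.095), from a median of 3.72 RPM (1.02 to 8.90) to 14.0 RPM (5.08 to 28.4). Its arms were apart in 1 of the 3 states, and all 18 Tug1-KD libraries still lay above the control mean of their state. *Dlg2*, a membrane scaffold of synapses, rose by 1.58 (SE 0.099). *Dio2*, the deiodinase that makes active thyroid hormone, rose by 1.58 (SE 0.065), from 16.4 RPM (12.2 to 34.8) to 56.3 RPM (27.5 to 105). The 3 states gave 1.54, 1.63 and 1.59 for *Dio2*. *Usp44*, a deubiquitinase gene, rose by 1.52 (SE 0.117) with 1.68, 1.92 and 0.99 in the 3 states, and *Hectd2os*, a lncRNA antisense to *Hectd2*, by 1.504 (SE 0.090) with 1.56, 1.85 and 1.13. These last genes show how much spread between states the size rule allows.

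The largest falls included enzymes and an ion pump subunit. *Atp1b2* (chr11:69487651-69496851, minus strand) encodes the beta 2 subunit of the Na,K-ATPase. It lay from 11.2 to 31.3 RPM (median 16.6) in control and from 1.61 to 7.88 RPM (median 4.22) in *Tug1* KD myotubes. No libraries overlapped, and in both arms replicates 1 to 3 were above replicates 4 to 6. The log2FC was -2.16 (SE 0.080, FDR = 9.17e-22), with -2.36, -2.30 and -1.83 in the 3 states and -1.96 and -2.40 in the 2 replicate sets. *Cmbl* (chr15:31565491-31590268, plus strand), a hydrolase gene, had the smallest p of all genes tested. Its level was 39.4 to 74.5 RPM (median 52.3) in control and 14.1 to 23.6 RPM (median 18.7) in *Tug1* KD myotubes, a log2FC of -1.52 (SE 0.046, FDR = 8.82e-24) that was -1.499, -1.497 and -1.575 by state. *Gpd1* (chr15:99615396-99622893, plus strand), the cytosolic glycerol-3-phosphate dehydrogenase that joins glycolysis to lipid synthesis, fell from a median of 7.49 RPM (6.06 to 11.3) to 2.71 RPM (1.92 to 4.02), a log2FC of -1.47 (SE 0.085). The arms of *Cmbl* and of *Gpd1* were apart over all 36 libraries.

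Further falls were those of *Mamstr*, a coactivator of the muscle transcription factor MEF2, with a log2FC of -1.42 (SE 0.083), of *Ampd1*, the AMP deaminase of muscle, with -1.27 (SE 0.068; -1.48, -1.31 and -1.02 by state), and of *Ncf1*, a cytosolic subunit of NADPH oxidase, with -1.27 (SE 0.059). *Mgst2*, a microsomal glutathione transferase gene, fell by 1.10 (SE 0.076), *Cd1d1*, which presents lipid antigens, by 1.09 (SE 0.076), and the uncharacterised *Gm13889* by 1.37 (SE 0.139). In each of the 20 genes with these largest changes, the control mean of a state was passed by all 18 Tug1-KD libraries. In 16 of them the arms were also apart in every state, the exceptions being *Col25a1*, *Usp44*, *Gm13889* and *Ampd1*. The 20 genes were chosen by the size of their change in the same libraries, so this separation is not separate evidence. Of the 20, 6 overlap another tested gene, which is *Cct5* for *Cmbl*, *Rpl31* for *Tbc1d8*, *Gtf2ird2* for *Ncf1*, *Metap2* for *Usp44*, *Hectd2* for *Hectd2os* and *Alkbh3* for *Gm13889*. The strand setting of the counting is not given in the sources used here, so reads of such pairs may not be told apart.

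**Figure D1:**
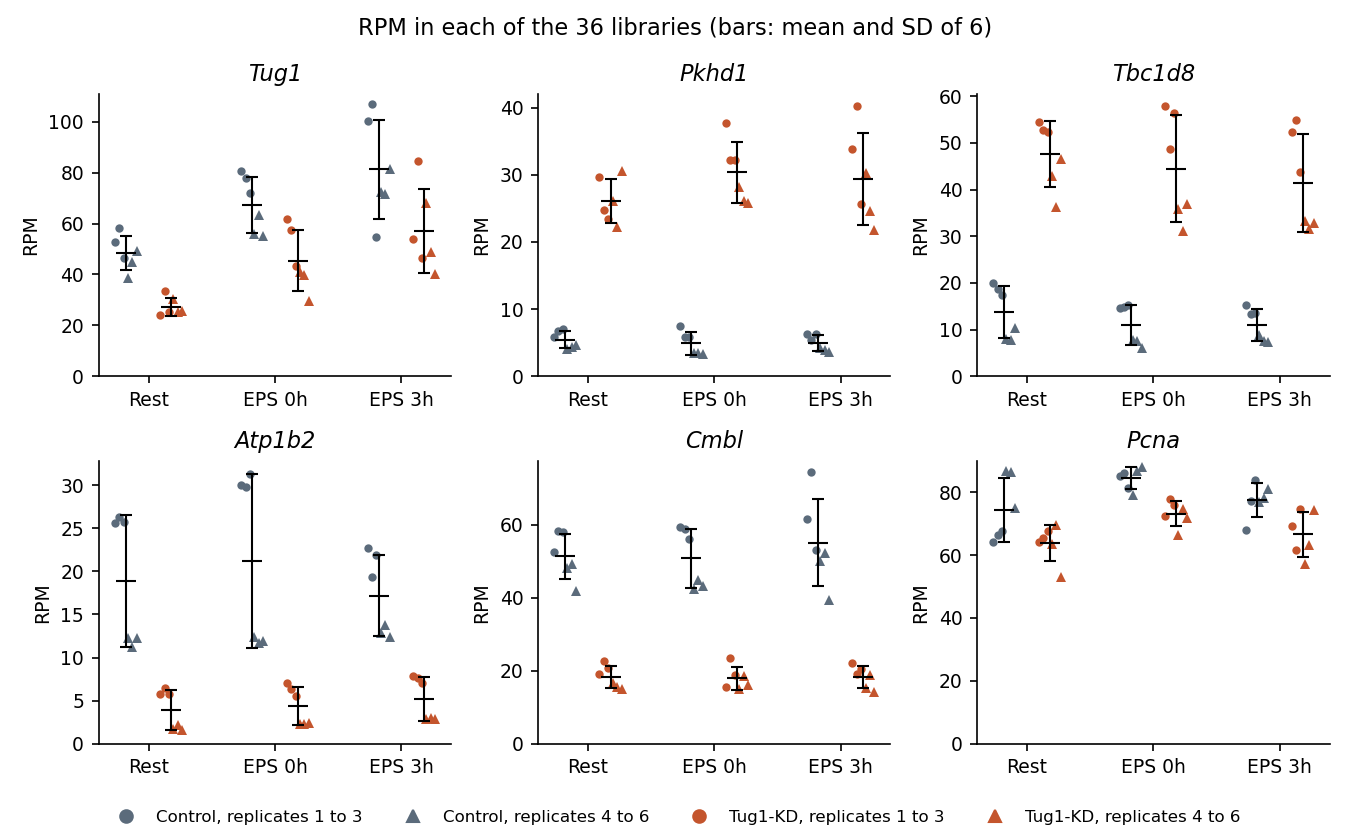
Level in RPM (vertical axes, from 0) of 6 genes in each of the 36 libraries, by state, with circles for replicates 1 to 3, triangles for replicates 4 to 6 and bars for the mean and SD of 6 libraries. *Pkhd1* and *Tbc1d8* lie higher and *Atp1b2* and *Cmbl* lower in every Tug1-KD library than in any control library. *Tug1* overlaps at EPS 0h and EPS 3h, and *Pcna* shows a shift of -0.21 with arms whose ranges over all libraries overlap.

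The plot of RPM by library shows the kinds of effect side by side, from separate arms to a shift between overlapping ranges. The plot of the largest effects sets the 3 state values beside the average of each gene.

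**Figure D2:**
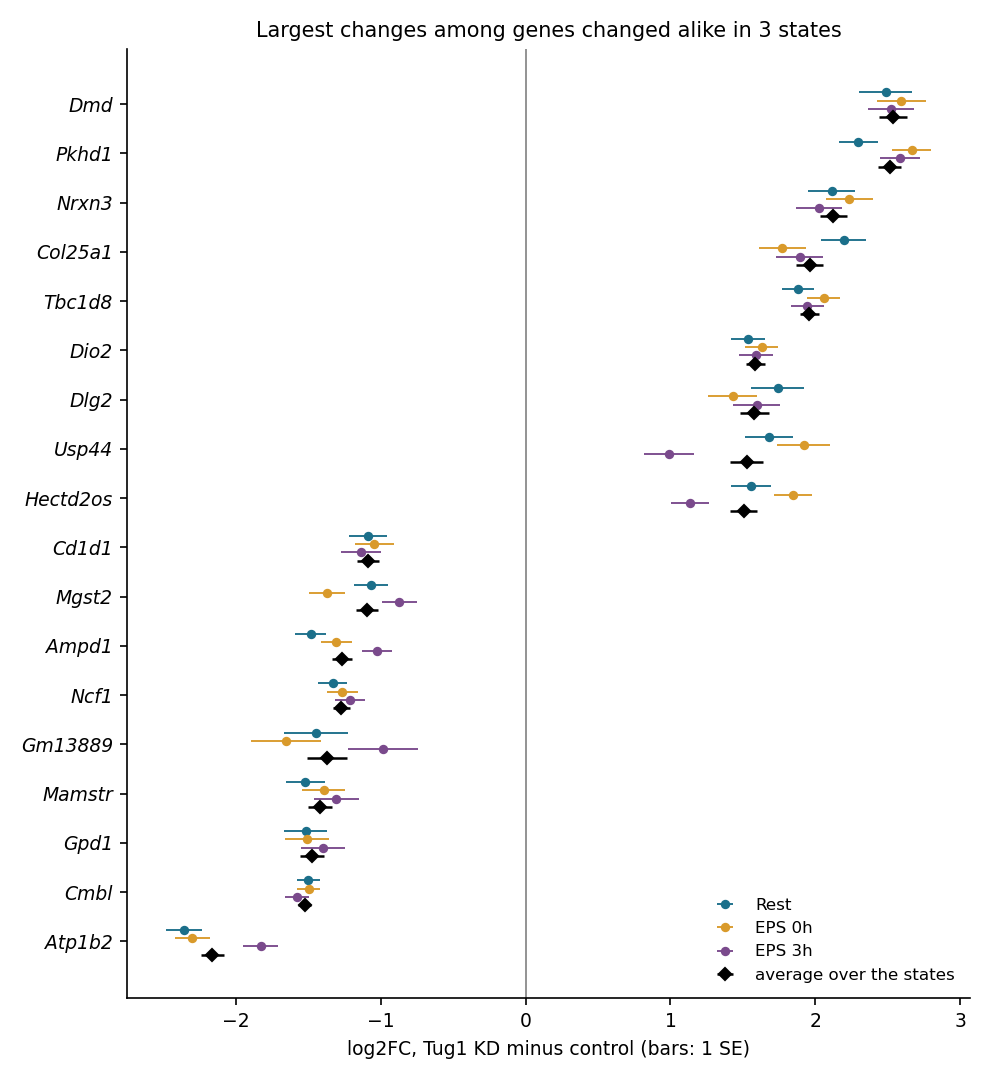
log2FC (*Tug1* KD minus control, horizontal axis) of 9 of the 10 largest rises and 9 of the 10 largest falls among genes changed alike, for Rest, EPS 0h and EPS 3h (circles) and on average (diamonds), with bars of 1 SE. The 3 states of *Dmd* lie between 2.48 and 2.59, while those of *Usp44* run from 0.99 to 1.92.

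The window from 250 bases before to 50 bases after the annotated 5′ end was read from the GRCm39 genome for 13945 of the tested genes (99.6%) with GENCODE gene starts. It was searched on both strands for CAGCTG (the E-box preferred by MyoD and myogenin), for other E-boxes (CANNTG in windows without CAGCTG), for TATAAA, for GGGCGG (the GC box) and for TGACCTTTG. CAGCTG is a form of CANNTG, and the other motifs do not contain one another. CAGCTG was in 14.6% of all windows, in 14.8% of those of genes alike and higher and in 16.4% of those of genes alike and lower. The shares were 45.6%, 46.7% and 48.1% for GGGCGG, 9.93%, 9.54% and 10.1% for TATAAA, 63.8%, 63.5% and 63.5% for CANNTG without CAGCTG, and 0.366%, 0.434% and 0.399% for TGACCTTTG. All these shares lay near those of all windows. Of the 20 genes with the largest changes, 11 had at least 1 of the motifs other than CANNTG. The windows of the 2 largest rises and the largest fall among those 11 are shown because these genes gave some of the largest effects in every state, in lower case, 5′ to 3′ on the strand of the gene, with these motifs on either strand in capitals. A match describes letters only. From the annotated 5′ end, *Dmd* has TATAAA on the opposite strand at -243, *Nrxn3* has CAGCTG at -136, and *Atp1b2* has GGGCGG at -84 and 7 and TATAAA at 33.
Dmd chrX:81992224-81992523 +: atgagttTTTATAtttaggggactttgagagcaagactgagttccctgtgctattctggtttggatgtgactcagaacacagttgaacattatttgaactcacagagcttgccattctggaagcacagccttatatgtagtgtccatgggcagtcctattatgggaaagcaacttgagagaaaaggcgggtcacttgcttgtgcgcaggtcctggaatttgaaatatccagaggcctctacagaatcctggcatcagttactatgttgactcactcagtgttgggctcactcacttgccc
Nrxn3 chr12:88689396-88689695 +: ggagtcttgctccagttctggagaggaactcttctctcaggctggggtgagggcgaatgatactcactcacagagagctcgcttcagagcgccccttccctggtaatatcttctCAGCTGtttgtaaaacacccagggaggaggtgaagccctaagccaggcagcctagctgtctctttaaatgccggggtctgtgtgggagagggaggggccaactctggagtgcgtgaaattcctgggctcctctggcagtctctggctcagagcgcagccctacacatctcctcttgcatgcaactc
Atp1b2 chr11:69496802-69497101 -: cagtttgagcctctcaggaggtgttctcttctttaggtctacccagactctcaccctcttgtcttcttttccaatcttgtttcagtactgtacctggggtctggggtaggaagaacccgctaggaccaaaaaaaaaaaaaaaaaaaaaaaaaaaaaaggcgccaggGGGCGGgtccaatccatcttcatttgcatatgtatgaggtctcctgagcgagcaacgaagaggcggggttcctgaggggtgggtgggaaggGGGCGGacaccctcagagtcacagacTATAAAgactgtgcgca

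Genes past the threshold on average and in none of the 3 state contrasts numbered 785 higher (5.61% of those tested) and 1062 lower (7.59%), 29.8% of the called genes. Their median log2FC was 0.20 and -0.19, the middle of their absolute values ran from 0.15 to 0.26, and 1429 of them (575 higher and 854 lower) were also alike in size. In 1835 of the 1847 (99.4%) the replicate sets had the same direction, against 78.2% of all genes tested. Both sets entered the average that called these genes, so the call itself favours a shared direction and this share is not separate evidence. *Pcna*, the sliding clamp of DNA replication, showed the kind of effect in question. It lay from 64.2 to 88.1 RPM (median 79.99) in control and from 53.1 to 77.9 RPM (median 68.4) in *Tug1* KD myotubes. These ranges overlapped, and yet all 18 Tug1-KD libraries lay below the control mean of their state. Its log2FC was -0.21 on average (SE 0.045, FDR = 0.000168) and -0.22, -0.21 and -0.22 by state, with state FDR values of 0.0537, 0.0543 and 0.0503.

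*Sirt1*, the NAD-dependent deacetylase, had the largest fall of the 12 genes named from this class, from a median of 62.9 RPM (25.8 to 103) to 45.0 RPM (20.8 to 84.3), with a log2FC of -0.38 (SE 0.085). These ranges span the states, and its control mean was 33.1 RPM at Rest and 78.4 RPM at EPS 3h. *Cdk12*, a kinase that phosphorylates RNA polymerase II, fell by 0.28 (SE 0.064), *Ube2k*, a ubiquitin-conjugating enzyme gene, by 0.19 (SE 0.043), *Cnppd1* by 0.19 (SE 0.041) and *Tmcc1*, an endoplasmic reticulum protein gene, by 0.16 (SE 0.037). The higher genes were *Nhs*, a regulator of actin remodelling, with 0.43 (SE 0.098), *Rasal2*, a Ras GTPase-activating protein, with 0.33 (SE 0.077), *Trmt44*, a tRNA methyltransferase, with 0.29 (SE 0.064), *Tbc1d19* with 0.24 (SE 0.055), *Phf21a*, a chromatin reader that works with the demethylase LSD1, with 0.23 (SE 0.052), and the tetraspanin *Tspan15* with 0.20 (SE 0.042). Average FDR values of the 12 ran from 0.000168 to 0.000556.

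This class depends on how the states are fitted. The state contrasts above share 1 estimate of the spread and 1 set of replicate terms, and when each state was fitted alone on its 12 libraries, 6420 genes were called at EPS 0h, and only 585 of the 1847 genes (31.7%; 221 higher and 364 lower) were missed by every state under both fits. All 12 named genes passed in at least 1 state fitted alone, *Sirt1* in all 3, and 7 of the 12 were no longer called on average in replicates 1 to 3 alone.

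**Figure D3:**
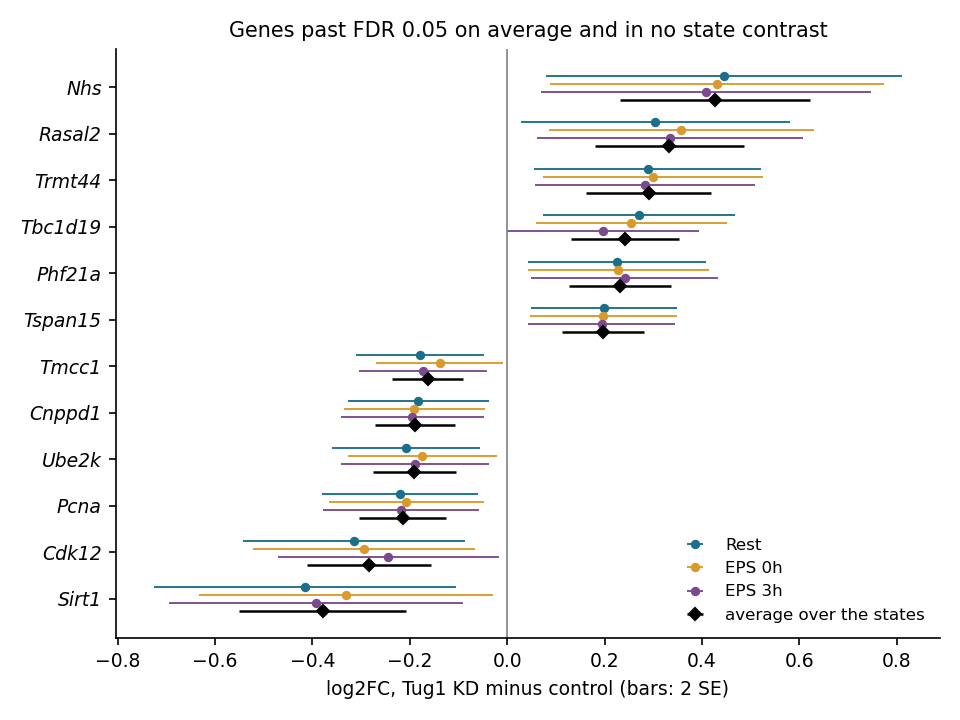
log2FC (*Tug1* KD minus control, horizontal axis) of the 12 named genes called on average and in no state contrast, by state (circles) and on average (diamonds), with bars of 2 SE. The state bars of *Pcna* are all wider than that of its average of -0.21, and the 3 state values of each gene lie on the same side of 0.

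The plot of these 12 genes shows state values that lie close together and averages with shorter bars. Other lists of genes were then read against the background of 21.2% higher and 23% lower calls and a median log2FC of -0.02.

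Genes of the contractile machinery and of its coupling to the membrane were more often higher than lower. Excitation-contraction coupling genes pass the membrane potential to calcium release, and of 41 tested 20 were higher, 9 lower and 12 not called, with a median log2FC of 0.20. *Cacna1s*, the voltage sensor of the T-tubule, rose by 1.37 (SE 0.056), its partner subunit *Cacna2d1* by 1.40 (SE 0.078), the ryanodine receptor *Ryr3* by 1.44 (SE 0.088) and the calcium buffer *Casq2* by 0.63 (SE 0.043). *Atp2a1*, the calcium pump of the sarcoplasmic reticulum, fell by 0.45 (SE 0.048). Of 59 sarcomere genes 25 were higher and 11 lower (median 0.09), and 4 were lower without the replicate term. The M-band genes *Myom1*, *Myom2* and *Myom3* rose by 1.44, 0.86 and 0.64, and *Mybpc2*, the myosin-binding protein C of fast fibres, fell by 1.04 (SE 0.048). In the dystrophin complex and its basement membrane receptors 11 of 26 were higher and 3 lower (median 0.10), with *Sgcd* at 0.97 and *Utrn* at 0.82 besides *Dmd*. Of 30 genes of myoblast fusion and adhesion 13 were higher and 5 lower (median 0.12), among them the membrane repair gene *Dysf* at 1.18, the adhesion genes *Ncam1* at 0.80 and *Cdh2* at 0.78, and the integrin *Itga9* at 1.58. Of 17 acetylcholine receptor and junction genes 8 were higher and 3 lower (median 0.09), with the receptor kinase *Musk* at 0.72 and acetylcholinesterase, *Ache*, at -0.79.

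Among 29 myogenic transcription factors 12 were higher and 5 lower (median 0.07). *Mef2c* rose by 1.01 (SE 0.070), *Vgll4*, a cofactor of TEAD proteins, by 0.75 (SE 0.047) and *Tead2* by 0.40 (SE 0.050). *Myf6*, the myogenic regulatory factor of late differentiation, fell by 1.56 (SE 0.118) and *Myod1* by 0.21 (SE 0.045), whereas *Myog* had a log2FC of 0.02 (FDR = 0.769). Members of this list therefore moved in both directions.

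Metabolic lists held more lower than higher genes. Of 40 genes of fatty acid oxidation and lipid droplets 18 were lower and 7 higher (median -0.12). The acyl-CoA dehydrogenase *Acadm* fell by 0.60 (SE 0.034), the pyruvate dehydrogenase kinase *Pdk2* by 0.60 (SE 0.049), *Hadh* by 0.48 (SE 0.043) and *Dgat2*, which makes triglyceride, by 0.64 (SE 0.065). Of 39 genes of glucose, glycogen and glycolysis 17 were lower and 9 higher (median -0.12), with the muscle phosphoglycerate mutase *Pgam2* at -0.60 and *Ldhb* at -0.45, while the phosphorylase kinase subunit *Phkb* and the glycogenin *Gyg* rose by 0.64 and 0.47. Cholesterol synthesis was an exception, with 12 of 27 genes higher and 1 lower (median 0.11). Its changes were small, as in *Dhcr7* (0.24, SE 0.036), *Lss* (0.16) and *Srebf2* (0.15), and in *Lss* 9 of 18 Tug1-KD libraries lay above the control mean. Without the replicate term 5 of the 27 were higher and 0 lower, and *Lss* and *Srebf2* were no longer called. Replicates 1 to 3 and replicates 4 to 6 on their own called 7 and 6 higher, and with an FDR under 0.01 or without Rest 7 were higher. Of 11 Na,K-ATPase genes 3 were higher and 3 lower (27.3% each, near the background; median -0.05), among them *Atp1b2* above and *Fxyd6* at 0.62.

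Mitochondrial genes gave mixed values. Of 14 genes of mitochondrial calcium handling 3 were higher and 4 lower (median -0.06). The uniporter channel *Mcu* rose by 0.69 (SE 0.043) and its gatekeeper *Micu2* by 0.31, and the uniporter regulator *Mcur1* fell by 0.36 (SE 0.043), each in 18 of 18 Tug1-KD libraries. Of 79 nuclear-encoded respiratory chain genes 3 were higher, 8 lower and 68 not called (median -0.03), with *Cox7a1*, a muscle isoform of a cytochrome oxidase subunit, at -0.94 (SE 0.107) and the complex I subunits *Ndufs4* and *Ndufs1* at 0.42 and 0.18. Of the 10 mtDNA-encoded genes tested 0 were called by edgeR, DESeq2 or limma-voom, and 0 had an unadjusted p under 0.05 in edgeR. Replicates 1 to 3 gave them a median log2FC of 0.23 and replicates 4 to 6 a median of -0.15. Of 77 mitochondrial ribosomal genes 17 were lower and 8 higher (median -0.08), and of 82 cytosolic ribosomal genes 5 were lower and 1 higher (median -0.08). With library sizes in place of TMM factors the lower calls were 27, 14 and 13 for the mitochondrial ribosome, the cytosolic ribosome and the respiratory chain. Among 15 genes of mitochondrial fusion and fission 6 were higher and 3 lower, and the median of 0.02 turned to -0.00 with library sizes and to -0.01 with upper quartile factors.

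Cell cycle genes were mostly on the lower side, with 26 of 55 lower and 2 higher (median -0.18). The helicase subunits *Mcm2* and *Mcm5* fell by 0.28 and 0.32, the phosphatase *Cdc25b* by 0.33 and the spindle protein *Tpx2* by 0.23. Replicates 1 to 3 had a median of -0.08 and called 2 lower and 1 higher on their own, and replicates 4 to 6 had a median of -0.28. The summed level of 7 markers of myoblasts or cycling cells ran from 134.9 to 231.6 RPM (median 188.8) in control and from 135.9 to 220.2 RPM (median 165.1) in *Tug1* KD myotubes, and fewer cells of a type and less RNA per cell cannot be told apart in such libraries. Of those 7 markers *Myf5* (-0.46), *Ccnb1* (-0.30), *Cdk1* (-0.29), *Ccna2* (-0.25) and *Top2a* (-0.22) fell, and *Mki67* (0.02) and *Pax7* (0.07) were not called. The 5 markers of fibroblasts or adipocytes summed to between 1571 and 3021 RPM (median 2175) in control and between 1447 and 2619 RPM (median 1975) in *Tug1* KD myotubes. Of their 3 tested genes *Pdgfra* (-0.69, SE 0.076) and *Col3a1* (-0.13) fell and *Dcn* (-0.10) was not called, and *Plin1* lay under 1 RPM in every library. The 3 immune markers summed to between 2.58 and 5.48 RPM in control and between 1.56 and 3.23 RPM in *Tug1* KD myotubes, with *Cd68* lower (-0.67) and *Cd3e* under 1 RPM in every library. The part of such cells in the cell cycle values was not tested. The 8 myotube markers summed to between 16475.6 and 23755.9 RPM (median 19029) in control and between 17821.8 and 23391.4 RPM (median 20377.4) in *Tug1* KD myotubes. Of these 8 markers *Ttn* was higher (0.59) and *Ckm* lower (-0.39), and the others were not called. The 3 neuronal markers stayed under 1 RPM in each library. Of 35 proteasome genes 20 were lower and 1 higher (median -0.14), with *Psmd3* at -0.27, *Psmc2* at -0.24, *Psmb4* at -0.33 and *Psma1* at -0.21, and 11 of the 20 were called in no state contrast. Of 24 polycomb genes and chromatin partners 10 were lower and 0 higher by edgeR (median -0.07; 0 higher also by DESeq2 and limma-voom, 1 at an unadjusted p under 0.05), with *Cbx2* at -0.52, *Cbx7* at -0.42 and *Ezh1* at -0.19.

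Several further lists also stayed near the background or split. They were the stress and unfolded protein response (6 higher and 10 lower of 38; *Atf6* 0.46, *Fgf21* -0.62), p53 targets (9 and 9 of 32; *Eda2r* 0.46), interferon response genes (10 and 9 of 39), heat shock genes (2 and 4 of 22; *Hspb7* -0.83), atrophy and autophagy genes (8 and 9 of 36; *Fbxo40* 0.81, *Atg7* 0.58), extracellular matrix genes (10 and 8 of 51; *Col4a5* 0.46) and lncRNAs (6 and 5 of 20, *Tug1* included; *Norad* 0.42). For the interferon list replicates 1 to 3 had a median of 0.21, against -0.16 for replicates 4 to 6, and without the replicate term 3 of its genes were higher instead of 10. The heat shock list went the other way, with a median of -0.13 and 0 higher and 4 lower in replicates 1 to 3, and of 0.11 and 5 higher and 2 lower in replicates 4 to 6. Of 33 genes that the study text names, 11 were higher, 16 lower and 6 not called, and 8 of the higher and 16 of the lower were alike. The nuclear receptors *Esrrg* and *Esrrb* rose by 1.49 and 1.10 and *Nr4a1* fell by 0.63, and *Alas1*, the rate-limiting enzyme of haem synthesis, fell by 0.54. A list chosen from genes that the study named on these samples is not independent evidence of a direction.

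**Figure D4:**
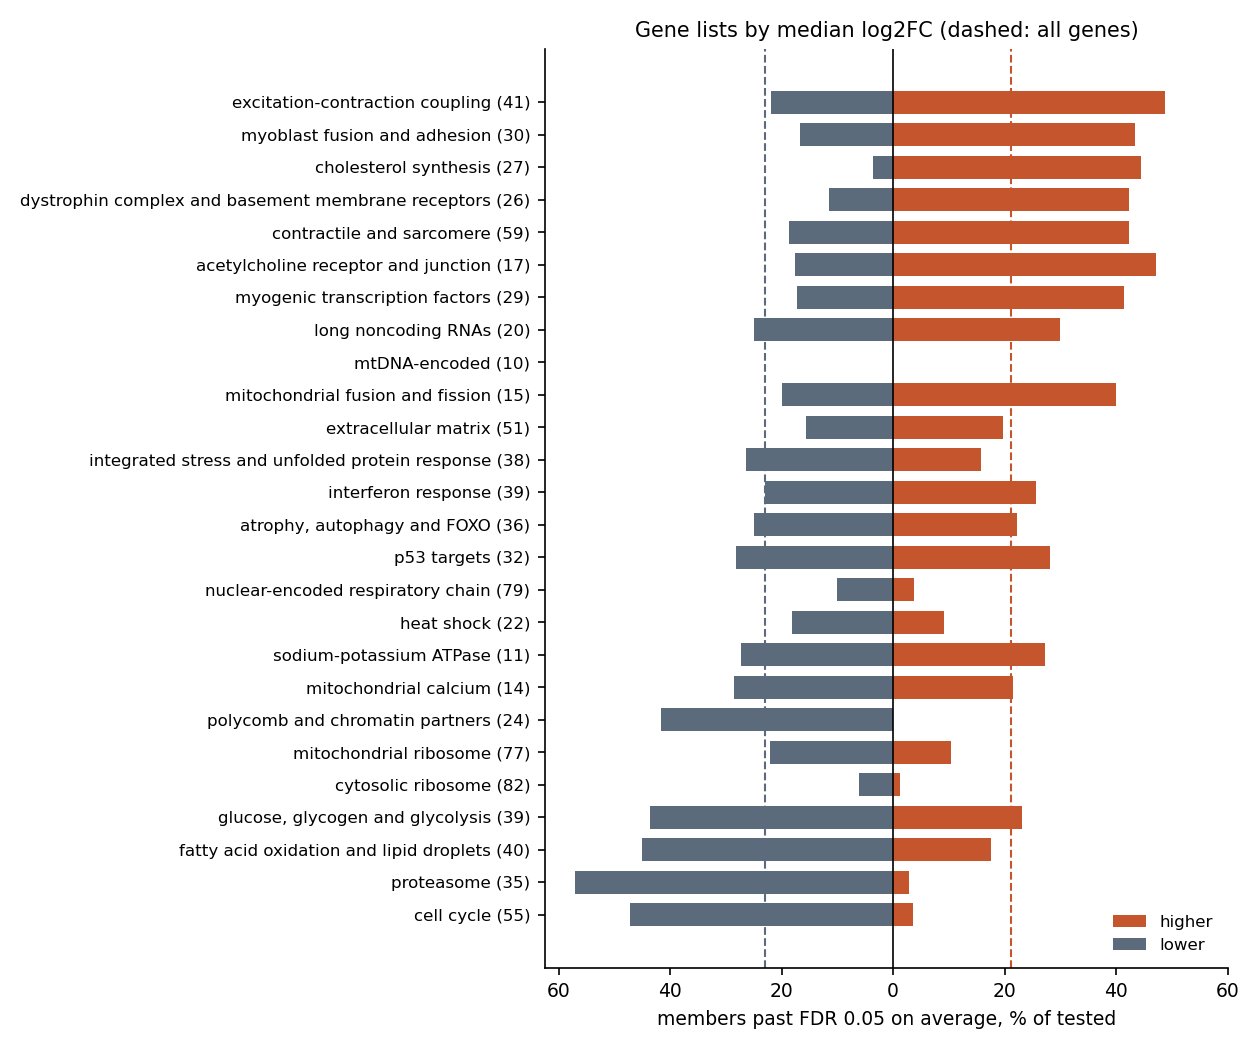
Share of the tested members of each list (their number in brackets) called higher (to the right) or lower (to the left) on average, in percent, with lists ordered by median log2FC and dashed lines for all genes tested. Excitation-contraction coupling stands at the top with a median of 0.20 and the cell cycle at the bottom with -0.18.

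The plot of 26 lists places the muscle membrane and contractile lists above and the cell cycle and proteasome lists below. A feature that the calls did not use, the span of a gene from its annotated start to its end including introns, went with the direction of the calls. Genes over 300 kb, 308 in all, were higher in 225 cases (73.1%) and lower in 5 (1.62%), with a median log2FC of 0.34. Those of 100 to 300 kb were higher in 54.9% and lower in 3.96% of 1514 (median 0.19), and those of 30 to 100 kb in 26.7% and 17.0% of 4156 (median 0.03). Genes of 10 to 30 kb were higher in 11.6% and lower in 30.5% of 4560 (median -0.07), and genes under 10 kb in 7.63% and 31.0% of 3408 (median -0.09). The order from short to long thus ran from mostly lower to mostly higher calls.

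The same order was present in each state and each replicate set. The median of genes over 300 kb was 0.28 at Rest, 0.38 at EPS 0h and 0.36 at EPS 3h, and 0.31 and 0.39 in the 2 sets, while the median of genes under 10 kb was -0.09, -0.14 and -0.08 by state. In 3 equal groups of genes by mean level, the median rose from each span class to the next in the middle and highest groups. In the lowest group genes under 10 kb had a median of -0.05 and those of 10 to 30 kb one of -0.07, and the median rose over the longer classes. In these 3 groups, from lowest to highest level, 60%, 80.2% and 80.6% of the genes over 300 kb were higher. As a description over 13946 genes that share the same libraries, Spearman's rho of the average log2FC was 0.389 with span, 0.292 with spliced length, 0.290 with the number of exon blocks and 0.048 with mean RPM. Genes changed alike had a median span of 71762 bp where higher and 15455 bp where lower, against 24360.5 bp over all genes, and those called only on average 50877 and 14960.5 bp.

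**Figure D5:**
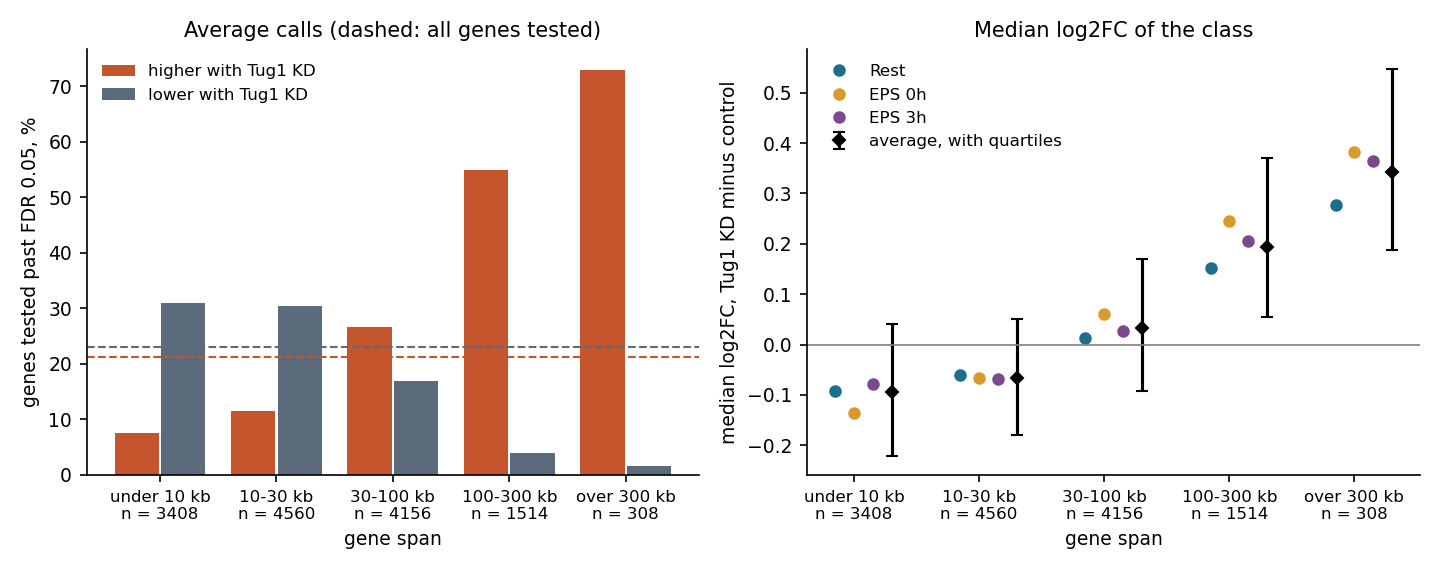
Left, percent of tested genes called higher or lower on average by class of gene span, with dashed lines for all genes tested. Right, median log2FC (*Tug1* KD minus control) of each class by state (circles) and on average (diamonds, with quartiles), which goes from -0.09 under 10 kb to 0.34 over 300 kb.

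In single libraries, genes over 100 kb took from 8.35% to 10.4% of the counts at Rest (median 10.2%) in control and from 10.2% to 12.8% (median 10.7%) in *Tug1* KD myotubes. At EPS 0h the shares were 9.29% to 11.5% (median 10.5%) and 11.9% to 14.9% (median 13.1%), and at EPS 3h 9.17% to 11.5% (median 9.88%) and 11.0% to 13.7% (median 11.97%). The arms were apart at EPS 0h and overlapped at Rest and EPS 3h. Stimulation moved with span as well, since in control myotubes the median of genes over 300 kb was 0.25 at EPS 0h and 0.40 at EPS 3h relative to Rest, and that of genes under 10 kb was -0.11 and -0.13. The part of span in any list was not tested, but list medians were also taken after the median of all genes of the same span class was subtracted, a step chosen after seeing the data. Excitation-contraction coupling then had a median of 0.17 instead of 0.20, the sarcomere 0.15 instead of 0.09, the dystrophin complex 0.05 instead of 0.10, the cell cycle -0.15 instead of -0.18 and the proteasome -0.07 instead of -0.14. Both ribosome lists moved to near 0, with 0.01 for the cytosolic and -0.01 for the mitochondrial. Mitochondrial calcium handling moved from -0.06 to -0.00, and mitochondrial fusion and fission from 0.02 to 0.08. The sign of the median turned for the nuclear-encoded respiratory chain (from -0.03 to 0.06), heat shock (from -0.03 to 0.04), p53 targets (from -0.02 to 0.04), the interferon response (from -0.01 to 0.05), the stress response (from -0.01 to 0.05), the Na,K-ATPase (from -0.05 to 0.01), the extracellular matrix (from 0.01 to -0.03) and lncRNAs (from 0.04 to -0.01).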

How the data were processed

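RNA sequencing covered 36 C2C12 myotube libraries, with 6 in every pairing of LNA and state. Per the study's methods, poly-A RNA was sequenced as stranded 150-bp pairs. FastQC 0.11.7, fastp 0.14.1 and STAR 2.5 with GRCm39 are named in the submitters' processing notes. The authors deposited raw whole-number counts for 55416 genes; 1492 of these carry no name, and they hold 0.0327% of the counts. The counting tool and its strand setting are not given in the sources used here. No libraries of a group were duplicates, since over 90 pairs the lowest chi-square divided by its degrees of freedom was 4.37.

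From these counts, the 13995 genes that reached 1 RPM in 12 or more libraries were normalized by TMM and fitted in R 4.3.3 with edgeR 4.0.16 (robust quasi-likelihood), which was tested on simulated data. The LNA term, the state and the replicate number entered the fit for the average, and a fit with an LNA term per state gave state contrasts and the test between states. The SE is the absolute log2FC divided by the square root of F. Total counts of 17005079 to 24181167 per library set the precision, which is lowest for genes near 1 RPM.

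Named genes are *Tug1* and its tested neighbours, the 10 largest rises and falls among genes changed alike (at least 5 RPM in the higher arm, protein coding or lncRNA), the 6 higher and 6 lower average-only genes with the smallest p, up to 4 members of each list with the smallest p, genes past the test between states, and genes the study names. *Morc2a*, *Dph5*, *Dtx2* and the overlapping genes were added after their values were seen. The members and lists were chosen with earlier results of these data known. Alternatives included DESeq2 1.42.0, limma-voom (limma 3.58.1), other scalings, filters, blocks and subsets. GENCODE's annotation of GRCm39 gave the coordinates of 13946 of the genes tested. Results for some genes that these rules name, and for 1 list, are not given here.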

Additional observations from a re-analysis of the deposited data

Results flagged for a closer look

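*Fut2* differed between states in the effect of *Tug1* KD (FDR = 0.000421 for the test of LNA by state, edgeR). Its log2FC was -1.72 at Rest, -0.34 at EPS 0h and 0.39 at EPS 3h, and the average of -0.42 was not called (FDR = 0.0572). At Rest it lay from 1.51 to 2.72 RPM in control and from 0.322 to 0.813 RPM in *Tug1* KD myotubes, without overlap, and at EPS 3h from 1.54 to 4.10 and from 2.63 to 4.16 RPM.

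*Sesn1*, a stress-induced gene of the p53 response, also differed between states (FDR = 0.00493, edgeR). Its log2FC was 0.27 at Rest, 1.02 at EPS 0h and 0.95 at EPS 3h, with an average of 0.75 (FDR = 3.91e-10). At Rest it lay from 47.9 to 59.8 RPM in control and from 55.7 to 74.5 RPM in *Tug1* KD myotubes, and at EPS 0h from 52.3 to 81.1 and from 95.4 to 188 RPM.

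*Tbc1d8* differed in size between the replicate sets. For *Tbc1d8* replicates 1 to 3 gave a log2FC of 1.74 and replicates 4 to 6 of 2.20 (FDR = 0.036 for the test of LNA by replicate set, edgeR). The sets were read from the data and this test was chosen after seeing them. Over all genes it called 35, of which 29 were changed alike and 8 had opposite signs in the sets.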

How the results depend on the processing

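The average fall of *Tug1* kept its direction and its call in all 22 settings, from -0.71 without replicate 4 to -0.55 without the Rest libraries. Leaving out each replicate number in turn gave 2366 to 2981 genes higher and 2665 to 3105 lower, 1778 to 2345 and 1962 to 2448 changed alike, 650 to 971 and 969 to 1248 called only on average, and 1 to 3 by the test between states, and *Tug1* then lay from -0.71 to -0.58. Replicates 1 to 3 alone called 1500 higher and 1501 lower, with 1051 and 1019 alike and 498 higher only on average, and 0 by the test between states (edgeR; 1444 at an unadjusted p under 0.05, 142 by DESeq2, 0 by limma-voom). Replicates 4 to 6 alone, with as many libraries, called 3099 higher and 2998 lower, with 2394 and 2132 alike, and gave 1 in that test. Without Rest it gave 0 (edgeR; 409 at an unadjusted p under 0.05, 1 by DESeq2, 0 by limma-voom), with DESeq2 26, with no filter 60, and without replicate 1 or 3 it gave 1. Without EPS 0h 1820 genes were lower, and 521 and 581 were called only on average. Without EPS 3h these were 489 and 667, and with each state fitted alone 256 and 454. Where alike required each state past the threshold, 890 and 584 remained. Subsets hold fewer libraries than the full fit, and the causes of these differences were not tested.

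Replicate numbers were taken from the labels as a block. Deviations of control and Tug1-KD libraries of the same number correlated from -0.096 to 0.632 at Rest. At EPS 0h the correlations ran from 0.626 to 0.754, and at EPS 3h from 0.217 to 0.743. Libraries of different numbers were not compared, and a difference between the replicate sets can by itself make libraries of the same set correlate. These correlations therefore cannot show whether wells of the same number were paired. With no replicate block 2327 genes were higher and 2409 lower and 1 passed the test between states. With a replicate block within each state the values were 3327, 3772 and 21.

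Of 3410 values of 155 other named genes, 67 lost their call, 14 gained one and 14 changed sign, all 14 in genes not called on average. They were *Myog* with library sizes (-0.00179), upper quartile factors (-0.00487) and without Rest (-0.0262), *Nrf1* in replicates 4 to 6 (0.0660) and without Rest (0.0241), *Gabpa* in replicates 4 to 6 (0.0119) and without EPS 3h (0.0420), *Hspa1a* in replicates 4 to 6 (0.232) and without Rest (0.106), and *Fut2* without Rest (0.104). Leaving out single replicates gave -0.0361 to 0.0379 for *Nrf1* (positive without replicate 3) and -0.0687 to 0.0431 for *Gabpa* (positive without replicates 1, 5 or 6). Calls were 48.0% higher by TMM, 41.0% with library sizes and 40.6% with upper quartile factors.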
